A study of Mus musculus with 32 samples.

Results

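The C-type lectin domain family covers the mouse genes whose symbols start with Clec and a number. It was taken as every probe with 1 gene symbol of that form, which gave 32 genes of the 19505 measured, each with 1 probe. RNA was measured on 32 arrays from the spinal cord and the cerebrum of wild-type male C57BL/6J mice, which were 6 to 12 weeks old at the start. A vessel occlusion had been produced by photothrombosis, in which light activates a dye in the vessel and a clot forms. The 8 groups of 4 arrays were spinal cord controls, spinal cord on day 1, 3 and 7 after photothrombosis, cerebrum controls and cerebrum on day 1, 3 and 7. The labels do not say whether controls underwent surgery, nor that each sample came from a separate animal. The p-values below therefore measure only how far these samples scatter, and that scatter may be technical. Sample titles run in number ranges of their own in each group, and the spinal day 7 titles alone carry another letter. Should these ranges stand for batches, then group and batch cannot be told apart below.

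C-type lectin receptors bind sugars, lipids or proteins through a compact domain, and many of them sit on myeloid cells. Clec4d, Clec4e and Clec4n pair with the Fc receptor gamma chain (Fcer1g), and Clec5a pairs with Tyrobp. Both adaptors recruit the kinase Syk, and the Fcer1g-coupled receptors signal on through Card9. Clec12a and Clec4a2 carry inhibitory tail motifs that recruit phosphatases. Members outside myeloid cells serve in platelets, endothelium or the matrix, and several Clec2 proteins are ligands of natural killer cell receptors. In injured nervous tissue such receptors are known from microglia and from blood-derived phagocytes that clear cell debris.

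In the GRCm38.p6 annotation 24 of the 32 genes lie on chromosome 6. Of these, 9 form the Clec4 cluster at chr6:122921848-123289871 and 12 lie in the natural killer gene complex at chr6:128662385-129452000. The other 11 members, Clec5a among them, lie elsewhere. RefSeq promoter windows of GRCm38.p6 at the transcript starts that its table lists were found for 25 of the 32 members, in 27 windows of 300 bases. Clec4n had no entry. The windows of 4 myeloid members are shown because these genes carry most of the results, with Clec4e included as the partner of Clec4d. Clec4d (chr6:123262107-123275268) and Clec4e (chr6:123281789-123289871) are neighbours on opposite strands, Clec5a lies at chr6:40574898-40585805 and Clec12a at chr6:129349783-129365303. The windows span chr6:123261857-123262156 on the plus strand, chr6:123289822-123290121 on the minus strand, chr6:40585756-40586055 on the minus strand and chr6:129349994-129350293 on the plus strand, and each is written 5′ to 3′ along its gene. The Clec12a window lies within the annotated gene span, at a start further in, and does not hold the gene's first base. Capitals mark GAGGAA (a core bound by PU.1-type ETS factors), TTGCNNAA (a C/EBP-type site) and TGANTCA on either strand. The last is a loose pattern around the AP-1 site, which has C or G at N.
Clec4d: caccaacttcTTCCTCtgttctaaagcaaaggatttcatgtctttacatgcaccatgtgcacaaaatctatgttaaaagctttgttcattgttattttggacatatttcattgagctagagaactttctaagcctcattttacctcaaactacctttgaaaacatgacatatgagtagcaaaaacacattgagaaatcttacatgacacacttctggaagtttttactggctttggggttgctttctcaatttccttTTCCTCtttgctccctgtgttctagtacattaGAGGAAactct
Clec4e: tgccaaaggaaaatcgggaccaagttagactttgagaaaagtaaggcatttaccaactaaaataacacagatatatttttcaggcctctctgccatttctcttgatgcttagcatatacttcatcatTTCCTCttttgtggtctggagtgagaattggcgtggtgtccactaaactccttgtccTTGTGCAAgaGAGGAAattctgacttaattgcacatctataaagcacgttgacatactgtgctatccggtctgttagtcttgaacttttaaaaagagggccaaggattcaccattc
Clec5a: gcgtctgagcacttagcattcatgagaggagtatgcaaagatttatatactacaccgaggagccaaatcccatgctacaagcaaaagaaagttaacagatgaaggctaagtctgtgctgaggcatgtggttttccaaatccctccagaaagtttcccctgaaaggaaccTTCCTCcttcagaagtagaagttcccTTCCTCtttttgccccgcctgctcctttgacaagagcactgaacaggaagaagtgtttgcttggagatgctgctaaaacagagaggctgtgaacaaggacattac
Clec12a: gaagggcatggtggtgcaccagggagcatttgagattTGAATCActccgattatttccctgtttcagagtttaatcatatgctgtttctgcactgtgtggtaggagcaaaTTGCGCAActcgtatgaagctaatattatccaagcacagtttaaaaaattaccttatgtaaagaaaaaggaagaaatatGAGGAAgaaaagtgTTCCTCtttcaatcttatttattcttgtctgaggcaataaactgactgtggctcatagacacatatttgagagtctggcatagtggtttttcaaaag
GAGGAA stood in 14 of the 27 member windows (51.9%), against 28.3% of 32851 promoter windows of the same length. TTGCNNAA stood in 6 member windows (22.2%), against 10.8% of all, and TGANTCA in 6 (22.2%), against 7.81% of all. The TTGCNNAA count holds the same Clec2i site more than once, in overlapping windows that start at bases 128887337 and 128887340 of chromosome 6. Clec4d, Clec4e, Clec5a and Clec12a all held GAGGAA, Clec4e and Clec12a held TTGCNNAA, and Clec12a held TGANTCA. In Clec12a that stretch reads TGAATCA, without the C or G of the AP-1 site. Counts of TGANTCA are therefore not counts of AP-1 sites. The motifs were chosen after the expression values had been seen, and a match describes letters in the window only.

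Values are log2 values that the authors centred per gene, so they show differences between groups and no level across genes. Day 3 and day 7 arrays had been centred apart from day 1, each with the controls, and their offset was rebuilt from that. A value below is the rebuilt relative log2 value, where 0 is the median of the gene's control and day 1 arrays. Differences are log2 differences of group means ± standard error (SE) from 1 limma fit of all 32 arrays, and a gene was called at a Benjamini-Hochberg adjusted p under 0.05 over the 19505 genes. Some comparisons cross separately centred arrays, namely day 3 or 7 against control and day 7 against day 1. For these the difference was tested against a bound of 0.2 plus the uncertainty of the offset. Folds across them carry the same uncertainty.

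Some libraries stood apart. Among the spinal cord controls, the mean relative log2 value of 8 skeletal muscle genes ranged from 0.38 to 4.03, against -0.28 to -0.19 in the cerebrum controls, and all 8 genes fell at spinal day 1. Replicates 1 and 2 had the highest of these spinal control values. A mean of 7 pituitary and hypothalamic genes was -0.21 to 0.02 in spinal cord controls, against 0.79 to 1.76 in cerebrum controls, and 6 of the 7 fell at cerebral day 1. Spinal day 3 replicate 1 had the lowest array weight of all (0.225). In a check chosen after the values were seen, 4 of 5 Hox genes (0.30 to 5.79 on the log2 scale) were called higher and all 3 forebrain genes (-4.60 to -1.05) lower in spinal cord controls than in cerebrum controls. Calls lost without spinal controls 1 and 2 or without cerebrum controls 1 and 2 are named below with their values.

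Members were called in the spinal cord on every day, and in the cerebrum on day 1 and day 7. At spinal day 1 against control 8 of the 32 members were called, where 31.9% of all genes were called. Of these 6 were higher, against 15.8% of all genes, and 2 were lower, against 16.1%. On spinal day 3 limma called 9 members, against 16.8% of all genes. Of these 8 were higher, against 9.12% of all genes, and 1 was lower, against 7.72%. With the values as deposited there were 10 higher and 3 lower on that day, where 32% of all genes were called in either direction. With the offset taken as exact there were 10 higher and 6 lower, where 38.3% of all genes were called. On spinal day 7 there were 14 called members, against 30% of all genes. The 13 higher members were 40.6% of the family, where 14.6% of all genes were higher, and 1 was lower, where 15.4% of all genes were. With the values as deposited, and also with the offset taken as exact, that split was 14 higher and 4 lower, where 44.3% and 50% of all genes were called. With arrays scaled to the 75th percentile it was 13 and 3, where 31.8% of all genes were called. In 12 members all 4 spinal day 7 arrays lay above all 4 controls, as in 19% of all genes.

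In the cerebrum 2 members were called on day 1, against 17.1% of all genes, with 1 higher (8.91% of all genes) and 1 lower (8.22% of all genes). Scaling to the 75th percentile made that 2 higher and 0 lower, where 17% of all genes were called. On cerebral day 3 limma called 0 members, and 3 had an unadjusted p under 0.05. On that day 4.8% of all genes were called, 2.79% higher and 2.01% lower. On cerebral day 7 limma called 4 members, all higher, against 5.68% of all genes in either direction and 3.98% higher. Over these 6 comparisons 19 members were called at least once and 13 never. The 19 were 59.4% of the family, where 55% of all genes were called at least once, so that share was near the background.

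At spinal day 7 the median member differed from control by 0.18 on the log2 scale, against -0.10 for all genes, with members between -0.59 and 4.99. At spinal day 3 the medians were 0.10 for members and -0.08 for all genes, and at spinal day 1 they were 0.07 and 0.02. At cerebral day 7 they were 0.11 for members and -0.05 for all genes, and at cerebral day 1 and day 3 both lay within 0.04 of 0. On spinal day 7 the sign was positive in 20 of the 32 members and negative in 12, so the family did not move as one.

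**Figure D1:**
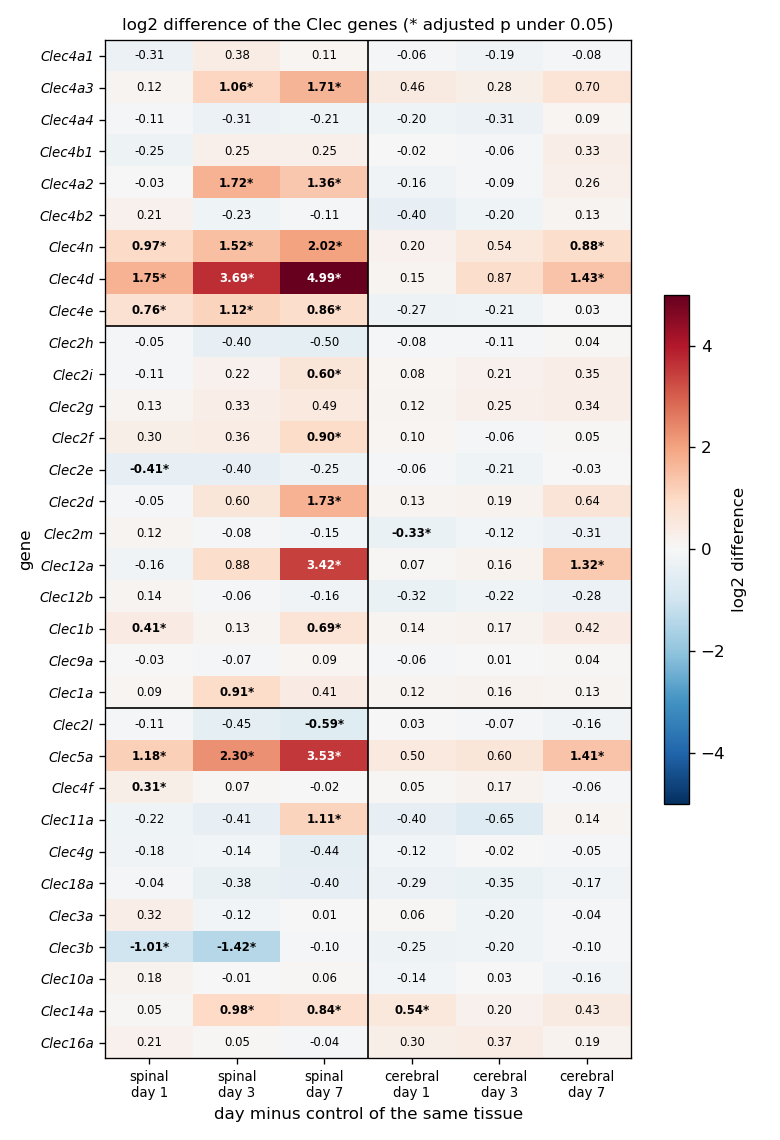
Log2 difference of each of the 32 Clec genes from the control of the same tissue, with days of the spinal cord on the left and of the cerebrum on the right. Rows are grouped by position, with the Clec4 cluster on top, the natural killer gene complex in the middle and other positions below. Colour runs from blue (lower) to red (higher) and an asterisk marks limma adjusted p under 0.05. Clec4d at spinal day 7 has the highest value, 4.99.

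Among the members Clec4d and Clec5a, both activating receptors, had the largest differences from control on spinal day 7. Clec4d is a receptor for mycobacterial glycolipid that forms a complex with Clec4e. In the spinal cord its relative log2 values were -0.27, -0.05, -0.23 and 0.08 in controls, 1.58, 2.52, 1.67 and 0.75 on day 1, 4.41, 1.30, 3.72 and 4.85 on day 3 and 5.03, 5.20, 4.59 and 4.68 on day 7. In the cerebrum they were -0.09, -0.10, 0.06 and -0.37 in controls, 0.24, -0.05, 0.05 and -0.15 on day 1, 0.74, 0.78, 0.77 and 0.70 on day 3 and 1.60, 1.33, 1.17 and 1.13 on day 7. Every spinal array after photothrombosis lay above every spinal control, and on day 7 even the lowest spinal array exceeded the highest cerebral one by far. Spinal day 3 was the most spread group, with replicate 2 well below the other 3. The spinal difference from control was 1.75 ± 0.40 on day 1 (3.36-fold, limma adjusted p = 0.00131), 3.69 ± 0.40 on day 3 (12.9-fold, limma adjusted p = 6.87e-08) and 4.99 ± 0.40 on day 7 (31.9-fold, limma adjusted p = 1.67e-11). These placed Clec4d at rank 22 of all rises on spinal day 3 and rank 37 on spinal day 7. In the cerebrum the difference was 1.43 ± 0.40 on day 7 (2.7-fold, limma adjusted p = 0.0464) and did not pass on day 3 (0.87 ± 0.40, limma adjusted p = 0.449). That cerebral call at day 7 was lost whichever of its 8 arrays was left out (limma adjusted p 0.0703 to 0.122), and with the values as deposited it was 0.83 (limma adjusted p = 0.201). Without cerebrum controls 1 and 2 it was 1.46 (limma adjusted p = 0.155). Scaling to the 75th percentile (1.41, limma adjusted p = 0.0527) and a trended robust fit (1.43, limma adjusted p = 0.0789) lost the call as well. Quantile normalization kept it at a larger value (1.83, limma adjusted p = 5.07e-05).

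Clec5a, a Tyrobp-coupled receptor that binds dengue virus, followed the same order of days. Its spinal values were -0.25, -0.18, 0.01 and -0.26 in controls, 0.87, 1.07, 1.15 and 0.94 on day 1, 2.75, 1.30, 1.92 and 2.55 on day 3 and 3.83, 3.84, 3.09 and 2.66 on day 7. The cerebral values were -0.29, -0.36, -0.36 and -0.01 in controls, 0.16, -0.11, 0.30 and 0.64 on day 1, 0.41, 0.30, 0.39 and 0.29 on day 3 and 1.23, 1.31, 1.18 and 0.90 on day 7. All spinal arrays after photothrombosis lay above all spinal controls, and in the cerebrum the same held on day 3 and day 7 but not on day 1. The spinal difference was 1.18 ± 0.23 on day 1 (2.26-fold, limma adjusted p = 0.000179), 2.30 ± 0.23 on day 3 (4.92-fold, limma adjusted p = 1.74e-08) and 3.53 ± 0.23 on day 7 (11.5-fold, limma adjusted p = 1.23e-13). The cerebral difference passed on day 7 (1.41 ± 0.23, 2.65-fold, limma adjusted p = 0.000256) and not on day 1 (0.50 ± 0.23, limma adjusted p = 0.129) or day 3 (0.60 ± 0.23, limma adjusted p = 0.367). Of the 4 members called at cerebral day 7, Clec5a had the lowest adjusted p.

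Clec4n, also called Dectin-2, recognises fungal mannans. In the spinal cord it measured 0.02, -0.24, -0.22 and -0.26 in controls, 1.16, 0.61, 0.72 and 0.70 on day 1, 1.24, 0.58, 1.5 and 2.06 on day 3 and 1.70, 2.13, 1.75 and 1.79 on day 7. In the cerebrum it measured -0.38, -0.45, -0.05 and 0.20 in controls, 0.06, -0.11, 0.19 and -0.02 on day 1, 0.44, 0.36, 0.32 and 0.36 on day 3 and 0.64, 0.85, 0.82 and 0.51 on day 7. Spinal arrays after photothrombosis all lay above the spinal controls, and cerebral arrays did so against cerebrum controls on day 3 and day 7. The difference from spinal controls was 0.97 ± 0.19 on day 1 (limma adjusted p = 0.000176), 1.52 ± 0.19 on day 3 (limma adjusted p = 1.74e-06) and 2.02 ± 0.19 on day 7 (4.05-fold, limma adjusted p = 8.92e-10). At cerebral day 7 it was 0.88 ± 0.19 (1.84-fold, limma adjusted p = 0.0128). Without cerebrum control replicate 1 that call was lost (0.81, limma adjusted p = 0.051), as it was without replicate 2 (0.78, limma adjusted p = 0.0595) and without both (0.63, limma adjusted p = 0.291). As deposited, it was 0.52 (limma adjusted p = 0.064).

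Clec4e, known as Mincle, senses mycobacterial cord factor and the nuclear protein Sap130 released by dying cells. Its spinal values were 0.10, -0.13, -0.01 and -0.07 in controls, 0.51, 0.96, 0.78 and 0.67 on day 1, 1.84, 0.06, 0.52 and 1.95 on day 3 and 0.83, 0.77, 1.13 and 0.59 on day 7. The cerebral values were 0.01, -0.08, 0.11 and 0.19 in controls, -0.20, -0.24, -0.41 and -0.02 on day 1, -0.02, -0.22, -0.24 and -0.12 on day 3 and 0.20, -0.05, 0.09 and 0.13 on day 7. On day 3 a pair of spinal arrays were high and a pair low, so that group overlapped the controls, while day 1 and day 7 arrays did not. Against spinal controls it differed by 0.76 ± 0.24 on day 1 (limma adjusted p = 0.0139), 1.12 ± 0.24 on day 3 (limma adjusted p = 0.00282) and 0.86 ± 0.24 on day 7 (limma adjusted p = 0.017). None of its cerebral differences passed by limma, with -0.27, -0.21 and 0.03 on day 1, 3 and 7. The day 7 call was lost without spinal day 7 replicate 3 (0.76, limma adjusted p = 0.0616). Without spinal controls 1 and 2 the calls of day 1 (0.77, limma adjusted p = 0.0554) and day 7 (0.87, limma adjusted p = 0.0572) were lost.

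**Figure D2:**
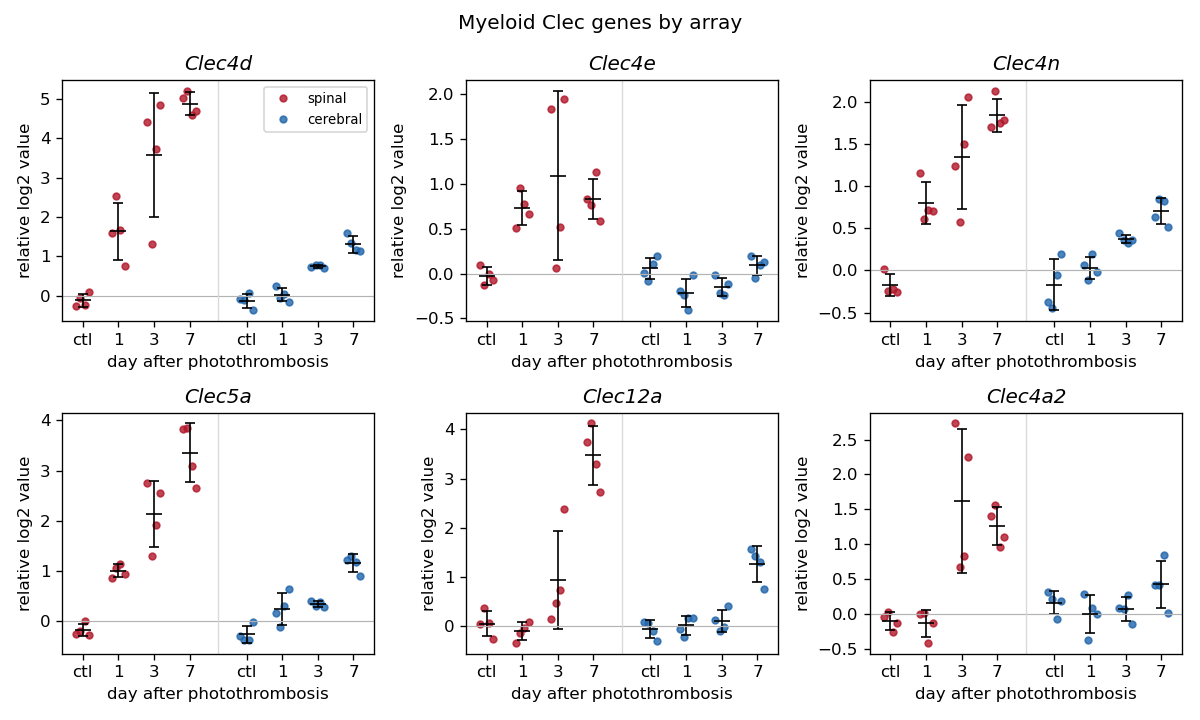
Relative log2 values of 6 myeloid Clec genes by array, with spinal cord (red) left of cerebrum (blue) and controls (ctl) and days 1, 3 and 7 along the horizontal axis. Each point is 1 array and the black marks give the mean ± SD of 4 arrays. The 4 spinal day 7 arrays of Clec4d lie between 4.59 and 5.20.

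Of the members with inhibitory tail motifs, Clec12a and Clec4a2 were called against control, while Clec12b and Clec4a4 were called in none of the 6 comparisons. Clec12a, which carries an inhibitory motif and binds uric acid crystals from dead cells, had spinal values of 0.04, 0.37, 0.07 and -0.26 in controls, -0.33, -0.13, -0.04 and 0.10 on day 1, 0.15, 0.48, 0.73 and 2.38 on day 3 and 3.74, 4.12, 3.30 and 2.73 on day 7. The cerebral values were 0.10, 0.08, -0.09 and -0.30 in controls, -0.06, -0.21, 0.17 and 0.18 on day 1, 0.13, -0.10, -0.02 and 0.42 on day 3 and 1.58, 1.44, 1.31 and 0.75 on day 7. Day 1 arrays overlapped controls in both tissues, and day 7 arrays lay above them in both. On spinal day 3 replicate 4 was the highest array and near the lowest of day 7. At day 7 the spinal difference was 3.42 ± 0.29 (10.7-fold, limma adjusted p = 8.99e-11) and the cerebral one 1.32 ± 0.29 (2.5-fold, limma adjusted p = 0.00926). The spinal day 1 difference was -0.16 ± 0.29 (limma adjusted p = 0.719) and that of spinal day 3 was 0.88 ± 0.29 (limma adjusted p = 0.0759). As deposited, the cerebral day 7 difference was 0.76 (limma adjusted p = 0.092).

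Clec4a2 (DCIR), whose tail carries an inhibitory motif, had spinal values of -0.04, 0.03, -0.26 and -0.13 in controls, 0.00, 0.01, -0.41 and -0.13 on day 1, 2.73, 0.67, 0.83 and 2.25 on day 3 and 1.40, 1.56, 0.96 and 1.11 on day 7. Its cerebral values were 0.32, 0.21, -0.07 and 0.19 in controls, 0.29, -0.37, 0.09 and 0.00 on day 1, 0.09, 0.07, 0.28 and -0.14 on day 3 and 0.41, 0.42, 0.85 and 0.02 on day 7. Spinal day 3 and day 7 arrays lay above the controls, and cerebral groups all overlapped theirs. Its spinal log2 difference was 1.72 ± 0.27 on day 3 (3.3-fold, limma adjusted p = 5.3e-05) and 1.36 ± 0.27 on day 7 (2.56-fold, limma adjusted p = 0.000512).

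Clec4a3, a close relative of Clec4a2 in the same cluster, had spinal values of -0.56, -0.05, -0.40 and 0.05 in controls, -0.22, 0.03, -0.29 and -0.01 on day 1, 0.51, 0.48, 0.63 and 1.67 on day 3 and 1.75, 1.80, 1.19 and 1.12 on day 7. In the cerebrum the values were 0.01, -0.07, -0.09 and 0.16 in controls, 0.54, 0.86, 0.43 and 0.02 on day 1, 0.31, 0.20, 0.19 and 0.42 on day 3 and 0.50, 1.04, 0.70 and 0.58 on day 7. Arrays of day 3 and day 7 lay above the controls in both tissues. Relative to spinal controls the difference was 1.06 ± 0.20 on day 3 (limma adjusted p = 0.0013) and 1.71 ± 0.20 on day 7 (3.26-fold, limma adjusted p = 1.69e-07), and the cerebral day 7 difference of 0.70 ± 0.20 did not pass (limma adjusted p = 0.12). The related Clec4a1, Clec4a4, Clec4b1 and Clec4b2 of this cluster were called in no comparison with control. These genes are close copies, and whether their probes respond to each other's RNA was not tested.

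By position, 5 of the 9 genes of the Clec4 cluster were called higher on spinal day 7, as were 5 of 12 in the natural killer gene complex and 3 of 11 elsewhere, where 14.6% of all genes were. On spinal day 3 the counts were 5 of 9, 1 of 12 and 2 of 11, where 9.12% of all genes were called higher. On cerebral day 7 they were 2 of 9, 1 of 12 and 1 of 11, where 3.98% of all genes were. The difference between positions was not tested. The cluster genes called on both spinal day 3 and day 7 were Clec4a2, Clec4a3, Clec4d, Clec4e and Clec4n.

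Markers of cells known to carry these receptors moved too, in part in other groups than the Clec genes. Of 10 neutrophil genes 5 were higher and 1 lower on spinal day 1, 2 higher on day 3 and 8 higher on day 7, and in the cerebrum 0, 0 and 1 were higher on these days by limma, and these cerebral counts were the same at an unadjusted p under 0.05. Their mean relative log2 value was 1.98 to 3.39 in spinal day 7 arrays, against 0.03 to 0.69 in spinal controls, and -0.22 to -0.04 in cerebral day 7 arrays, against -0.31 to -0.12 in cerebrum controls. Of 10 monocyte and macrophage genes 4, 8 and 7 were higher on spinal day 1, 3 and 7, and 2, 3 and 3 on the same days in the cerebrum. The mean of these was 2.37 to 2.74 in spinal day 7 arrays, against -0.35 to 0.36 in spinal controls, and 0.57 to 0.69 in cerebral day 7 arrays, against -0.32 to -0.23 in cerebrum controls. Of 8 activated microglial genes 2, 4 and 7 were higher on spinal day 1, 3 and 7 and 5, 2 and 7 on cerebral day 1, 3 and 7. Their mean was 3.42 to 4.07 in spinal day 7 arrays, against -0.22 to -0.08 in spinal controls, and 1.78 to 2.24 in cerebral day 7 arrays, against -0.34 to -0.21 in cerebrum controls. Of 9 homeostatic microglial genes 2, 4 and 5 were higher on spinal day 1, 3 and 7, with 3 lower on day 1, and 5, 3 and 5 were higher on cerebral day 1, 3 and 7. On spinal day 3 their mean was -0.80 in replicate 1 and 0.83 to 1.08 in the other 3. On cerebral day 1, where 5 genes of each microglial list were higher, Clec14a was the only Clec gene called higher. On cerebral day 7, where Clec4d, Clec4n, Clec5a and Clec12a were called, 1 of 10 neutrophil genes was higher. The part of these lists in the Clec results was not tested, and in bulk tissue more cells of a type and more RNA per cell cannot be told apart, nor can fewer cells and less RNA per cell.

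The Clec2 group of the natural killer gene complex encodes ligands of killer cell receptors. Clec2d, whose product Clr-b engages the inhibitory receptor Nkr-p1b, had spinal values of -0.35, 0.84, 0.02 and 0.60 in controls, 0.20, 0.44, 0.19 and 0.09 on day 1, 0.43, 0.95, 1.07 and 1.04 on day 3 and 1.86, 2.05, 1.97 and 2.14 on day 7. Its cerebral values were -0.16, -0.28, -0.47 and -0.24 in controls, 0.14, -0.38, -0.02 and -0.37 on day 1, -0.24, -0.36, -0.21 and 0.41 on day 3 and 0.24, 0.29, 0.33 and 0.54 on day 7. The day 7 arrays were tight and above the controls in each tissue, while the spinal controls themselves were spread. On spinal day 7 the difference was 1.73 ± 0.19 (3.31-fold, limma adjusted p = 1.15e-06). The cerebral one of 0.64 ± 0.19 did not pass the test against its bound (limma adjusted p = 0.801).

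Clec2f, encoding Clr-c, measured -0.01, -0.66, -0.11 and -0.10 in spinal controls, 0.16, 0.31, -0.03 and -0.12 on spinal day 1, -0.03, -0.05, -0.09 and 0.71 on day 3 and 0.75, 0.92, 0.60 and 0.43 on day 7. Cerebral values were 0.15, -0.53, 0.08 and 0.04 in controls, 0.01, 0.03, -0.06 and 0.16 on day 1, 0.01, -0.25, -0.22 and -0.06 on day 3 and 0.03, -0.24, 0.20 and -0.04 on day 7. Only the spinal day 7 group lay wholly above its controls. Its difference was 0.90 ± 0.16 (1.86-fold, limma adjusted p = 0.000514).

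Clec2i, encoding Clr-g, measured 0.36, 0.47, 0.17 and -0.03 in spinal controls, 0.45, 0.19, 0.09 and -0.18 on spinal day 1, 0.22, 0.40, 0.50 and 0.73 on day 3 and 0.93, 1.01, 0.79 and 0.65 on day 7. In the cerebrum it was -0.22, -0.02, -0.25 and -0.02 in controls, 0.08, -0.16, 0.02 and -0.15 on day 1, -0.04, 0.19, -0.11 and 0.28 on day 3 and 0.39, 0.42, 0.14 and -0.06 on day 7. The spinal day 7 arrays again lay above the controls, with a difference of 0.60 ± 0.14 (limma adjusted p = 0.0118). As deposited, it was 0.34 (limma adjusted p = 0.0447). Without spinal control replicate 4 it was 0.51 (limma adjusted p = 0.0617). Klrb1b, the receptor for Clec2d, and its relatives Klrb1c and Klrb1f differed from control by -0.52 to 0.25 on all days in both tissues, and limma called none. Of 9 measured NK cell and lymphocyte genes 3 were higher on spinal day 1. On the other days limma called 0 in either tissue, and at an unadjusted p under 0.05 there were 2 on spinal day 7, 1 on cerebral day 1 and 0 on the rest.

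Small differences marked other Clec2 members. Clec2e fell on spinal day 1, with -0.39, -0.14, -0.36 and -0.21 on day 1 and 0.00, 0.31, 0.02 and 0.21 in spinal controls, a difference of -0.41 ± 0.11 (limma adjusted p = 0.00622) without overlap. Its spinal day 3 values were -0.44, -0.34, -0.31 and 0.04 and its day 7 values -0.24, 0.03, -0.02 and -0.24, and neither group was called. In the cerebrum Clec2e was 0.01, 0.03, -0.11 and 0.03 in controls, 0.07, -0.04, 0.00 and -0.31 on day 1, -0.03, -0.28, -0.21 and -0.34 on day 3 and -0.05, -0.27, -0.07 and 0.24 on day 7, with no called difference. Clec2m fell on cerebral day 1, with -0.34, -0.05, -0.25 and 0.04 on day 1 and 0.43, 0.11, 0.03 and 0.16 in cerebrum controls, a difference of -0.33 ± 0.12 (limma adjusted p = 0.0446) with overlapping arrays. This call was lost in 5 of the 8 fits that left out 1 array (limma adjusted p 0.0562 to 0.175) and without cerebrum controls 1 and 2 (-0.25, limma adjusted p = 0.283). Elsewhere Clec2m was 0.24, 0.22, -0.05 and -0.15 on cerebral day 3, -0.14, -0.17, -0.11 and -0.08 on cerebral day 7, 0.08, -0.39, -0.01 and -0.23 in spinal controls, then -0.19, 0.19, -0.10 and 0.01 on spinal day 1, -0.27, -0.24, -0.27 and -0.10 on spinal day 3 and -0.24, -0.12, -0.31 and -0.46 on spinal day 7, with no called change.

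Clec2l, which lies apart from the complex at chr6:38663069-38680865 and whose human counterpart is known from brain, was the only member called lower on spinal day 7. Spinal values were -0.03, 0.12, -0.16 and 0.15 in controls, 0.04, -0.05, -0.54 and 0.21 on day 1, -0.33, -0.13, -0.42 and -0.84 on day 3 and -0.69, -0.65, -0.32 and -0.62 on day 7, and cerebral values were -0.11, -0.10, 0.18 and 0.01 in controls, -0.01, -0.21, 0.04 and 0.27 on day 1, -0.11, -0.22, 0.00 and 0.04 on day 3 and -0.34, 0.18, -0.27 and -0.23 on day 7. Every spinal day 7 array lay below every spinal control, with a difference of -0.59 ± 0.15 (limma adjusted p = 0.0238). The call was lost in 4 of the 8 fits that left out 1 array (limma adjusted p 0.0555 to 0.0663) and without spinal controls 1 and 2 (-0.56, limma adjusted p = 0.0957). All 8 neuronal marker genes were lower on spinal day 7 too, with a mean of -2.59 to -1.90 in day 7 arrays and -0.64 to -0.38 in spinal controls, and their part in the Clec2l result was not tested.

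Members of endothelium and platelets formed a further set. Clec14a, an endothelial protein that binds the matrix protein Mmrn2 in angiogenesis, had spinal values of -0.52, 0.42, -0.13 and 0.10 in controls, 0.20, -0.06, 0.09 and -0.15 on day 1, 0.87, 0.81, 1.04 and 1.07 on day 3 and 0.77, 1.00, 0.38 and 1.10 on day 7. Its cerebral values were -0.19, -0.25, -0.25 and -0.29 in controls, 0.44, 0.26, 0.42 and 0.06 on day 1, 0.01, -0.24, -0.03 and 0.08 on day 3 and 0.06, 0.51, 0.25 and -0.09 on day 7. The gene was called higher on day 3 and day 7 in the spinal cord and on day 1 in the cerebrum, where the 4 controls were nearly alike. Spinal differences were 0.98 ± 0.15 on day 3 (1.97-fold, limma adjusted p = 0.000979) and 0.84 ± 0.15 on day 7 (limma adjusted p = 0.000686). The cerebral day 1 difference was 0.54 ± 0.15 (limma adjusted p = 0.0147), and without cerebrum controls 1 and 2 it was 0.56 (limma adjusted p = 0.0619). Its partner gene Mmrn2 was higher by 0.55 on spinal day 1 and 0.73 on spinal day 3.

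Clec1a, found on endothelial and dendritic cells, measured 0.07, 0.39, -0.01 and 0.19 in spinal controls, 0.24, 0.72, 0.07 and -0.06 on spinal day 1, 2.03, 0.97, 0.86 and 0.42 on day 3 and 0.41, 0.62, 0.41 and 0.83 on day 7. Cerebral values were -0.35, -0.17, 0.10 and -0.27 in controls, -0.08, 0.01, -0.09 and -0.06 on day 1, 0.21, -0.11, 0.04 and -0.19 on day 3 and 0.26, -0.23, 0.25 and -0.44 on day 7. The spinal day 3 difference of 0.91 ± 0.21 was called (limma adjusted p = 0.00952), and replicate 1 of that group was the highest array. Without it the difference was 0.59 (limma adjusted p = 0.0857). Of 8 endothelial marker genes 5 were higher and 1 lower on spinal day 3, with a mean of 0.88 to 1.11 in day 3 arrays and 0.05 to 0.45 in spinal controls. On spinal day 1 they gave 4 higher and 3 lower, on spinal day 7 they gave 4 higher and 1 lower, and in the cerebrum 4, 3 and 1 were higher on day 1, 3 and 7. Their part in the Clec14a and Clec1a results was not tested.

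Clec1b, the platelet receptor CLEC-2 whose ligand is podoplanin (Pdpn), measured -0.19, 0.29, -0.22 and -0.13 in spinal controls, 0.11, 0.52, 0.37 and 0.37 on spinal day 1, 0.36, 0.25, -0.30 and -0.06 on day 3 and 0.61, 0.84, 0.40 and 0.64 on day 7. In the cerebrum the values were 0.15, -0.55, -0.03 and -0.15 in controls, 0.36, -0.17, 0.03 and -0.25 on day 1, 0.16, -0.01, 0.10 and -0.17 on day 3 and 0.21, 0.25, 0.39 and 0.23 on day 7. Day 7 arrays lay above controls in each tissue. The change in spinal cord was 0.41 ± 0.15 on day 1 (limma adjusted p = 0.0398) and 0.69 ± 0.15 on day 7 (limma adjusted p = 0.0164). Leaving out 1 array ended the day 1 call in 6 of 8 fits (limma adjusted p 0.071 to 0.118) and the day 7 call in 2 of 8 (limma adjusted p 0.0533 and 0.0653). Podoplanin was higher by 2.30, 2.20 and 2.29 on spinal day 1, 3 and 7 and by 1.01 on cerebral day 1. Of 6 platelet genes 2, 1 and 1 were higher on spinal day 1, 3 and 7, and 0, 1 and 1 on cerebral day 1, 3 and 7. On spinal day 7 it was Pf4 at 4.53, a gene that macrophages express too. The platelet mean was 0.49 to 0.80 in spinal day 7 arrays and -0.28 to 0.04 in spinal controls, and its part in the Clec1b result was not tested.

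**Figure D3:**
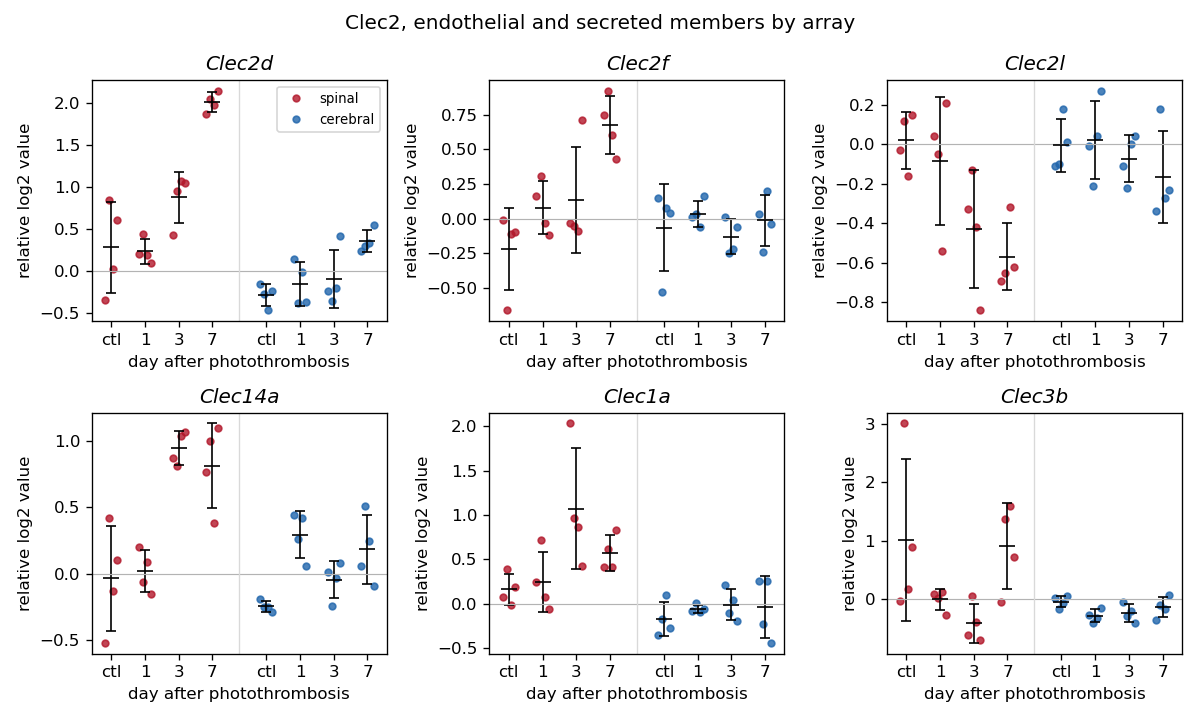
Relative log2 values of 6 Clec genes of the Clec2 group, endothelium and matrix by array, laid out as for the myeloid genes, with spinal cord (red) left of cerebrum (blue). Each point is 1 array and the black marks give the mean ± SD of 4 arrays. Clec3b has 1 spinal control array at 3.01, far above the other 3.

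Among secreted members Clec11a was called higher and Clec3b lower in the spinal cord. Clec11a, a growth factor for blood and bone progenitors, had spinal values of -0.44, -0.17, -0.11 and 0.46 in controls, -0.20, -0.15, -0.48 and -0.31 on day 1, -0.88, -0.15, -0.27 and -0.57 on day 3 and -0.11, 1.82, 0.87 and 1.58 on day 7. In the cerebrum they were 0.49, 0.45, 0.79 and 0.26 in controls, -0.06, 0.06, 0.06 and 0.32 on day 1, -0.14, -0.11, -0.14 and -0.24 on day 3 and 0.62, 0.78, 0.56 and 0.59 on day 7. Replicate 1 of spinal day 7 stayed among the controls while the other 3 were above them. The spinal day 7 difference was 1.11 ± 0.24 (2.15-fold, limma adjusted p = 0.00181). With the values as deposited it was 0.58 (limma adjusted p = 0.0498), and without spinal controls 1 and 2 it was 0.86 (limma adjusted p = 0.0564).

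Clec3b, or tetranectin, binds plasminogen and is made in muscle and connective tissue among other sites. Its spinal values were -0.02, 3.01, 0.17 and 0.89 in controls, 0.10, 0.02, 0.13 and -0.26 on day 1, -0.61, 0.05, -0.39 and -0.69 on day 3 and -0.05, 1.37, 1.60 and 0.72 on day 7, and its cerebral values 0.02, -0.17, -0.06 and 0.06 in controls, -0.26, -0.41, -0.32 and -0.14 on day 1, -0.05, -0.29, -0.20 and -0.41 on day 3 and -0.35, -0.09, -0.17 and 0.07 on day 7. The spinal controls were the most spread group, with replicate 2 far above the rest. In spinal cord the difference was -1.01 ± 0.37 on day 1 (limma adjusted p = 0.0343) and -1.42 ± 0.37 on day 3 (limma adjusted p = 0.0106), called lower on both days with overlapping arrays. Without spinal control replicate 2 the values were -0.35 (limma adjusted p = 0.292) and -0.76 (limma adjusted p = 0.0711), and neither was called. Without spinal controls 1 and 2 they were -0.53 (limma adjusted p = 0.152) and -0.94 (limma adjusted p = 0.0397), so the day 3 call was kept there. Leaving out 1 array ended the day 1 call in 5 of 8 fits (limma adjusted p 0.0506 to 0.292) and the day 3 call in 1 of 8. On spinal day 7 the difference of -0.10 ± 0.37 was not called (limma adjusted p = 1). The mean of the muscle genes in spinal controls 1 to 4 was 4.03, 3.37, 1.51 and 0.38, and its part in the Clec3b result was not tested.

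Clec4f, a receptor known from liver macrophages, was higher on spinal day 1, with 0.11, 0.37, 0.15 and 0.07 on day 1 and -0.13, -0.21, -0.19 and 0.00 in spinal controls, a difference of 0.31 ± 0.11 (limma adjusted p = 0.0258). The call was lost in 3 of 8 fits that left out 1 array (limma adjusted p 0.0629 to 0.109) and without spinal controls 1 and 2 (0.27, limma adjusted p = 0.143). Later spinal values were 0.00, -0.20, 0.04 and -0.08 on day 3 and -0.17, -0.30, -0.05 and -0.05 on day 7. Cerebral values were -0.19, -0.01, 0.00 and 0.00 in controls, -0.09, 0.15, -0.20 and 0.15 on day 1, 0.37, 0.08, 0.06 and -0.01 on day 3 and -0.04, -0.36, 0.06 and -0.08 on day 7, and no cerebral group was called.

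The other 11 members were called neither in the 6 comparisons with control nor in those between tissues. They were Clec10a (a galactose receptor of macrophages), Clec9a (a dendritic cell receptor for exposed actin), Clec12b, Clec2g, Clec2h, Clec3a, Clec4a1, Clec4a4, Clec4b1, Clec4b2 and Clec4g. Their log2 differences from control ran from -0.50 to 0.49, and the lowest limma adjusted p among them was 0.0704. Clec2g at spinal day 7 and Clec2h at spinal day 7 marked the ends of that range. Of 10 dendritic cell genes 4 were higher and 3 lower on spinal day 1, 1 was higher and 2 lower on spinal day 7, and 1 was higher and 0 lower on cerebral day 1.

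Tests of the spinal minus the cerebral change asked whether the response differed between tissues, and here the offset between separately centred arrays drops out. On day 1 limma called 1 of 32 members, Clec4e, at 1.03 ± 0.33 (limma adjusted p = 0.0419), where 11.3% of all genes were called, 4.7% higher and 6.58% lower. It was lost in 11 of 16 fits that left out 1 array (limma adjusted p 0.0534 to 0.084), without spinal controls 1 and 2 (1.04, limma adjusted p = 0.0803) and without cerebrum controls 1 and 2 (1.12, limma adjusted p = 0.0588). On day 3 it called 6 members, all higher in the spinal cord, against 9.27% of all genes, with 4.08% higher and 5.19% lower. These were Clec4d at 2.82 ± 0.57 (limma adjusted p = 0.0019), Clec4a2 at 1.81, Clec5a at 1.70, Clec4e at 1.33, Clec4n at 0.98 and Clec14a at 0.78. The Clec14a difference was lost without spinal control replicate 1 (0.62, limma adjusted p = 0.0639) and without cerebrum controls 1 and 2 (0.76, limma adjusted p = 0.0624).

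On day 7 the test called 9 members, again all higher in the spinal cord, against 27.6% of all genes, and 13% of all genes were called higher. Clec4d led with 3.56 ± 0.57 (limma adjusted p = 1.86e-05), so its rise was 11.8-fold larger in the spinal cord than in the cerebrum. Clec5a followed at 2.12 ± 0.32 (limma adjusted p = 7.27e-06) and Clec12a at 2.09 ± 0.42 (limma adjusted p = 0.000264). Clec4n gave 1.14, Clec4a2 1.10, Clec2d 1.09, Clec4a3 1.01, Clec11a 0.96 and Clec2f 0.84. The Clec11a call was lost in 8 of 16 fits that left out 1 array and the Clec4a2 call in 5 of 16. Without spinal controls 1 and 2 the Clec11a call was lost (0.72, limma adjusted p = 0.174). Without cerebrum controls 1 and 2 the calls of Clec11a (0.99, limma adjusted p = 0.0666) and Clec4a2 (1.00, limma adjusted p = 0.103) were lost. Quantile normalization added to the rebuilt values ended all 9 calls. Under it Clec4d differed by 1.03 (limma adjusted p = 0.0743), Clec5a by 0.16 (limma adjusted p = 0.732) and Clec12a by 0.10 (limma adjusted p = 0.871), and the cause was not tested. The spinal day 7 differences of Clec4d, Clec5a and Clec12a from control were 2.85, 1.92 and 1.76 under that setting and stayed called, as did Clec4n at 1.14, Clec4a3 at 1.03, Clec4a2 at 0.80 and Clec2f at 0.66. The other 7 spinal day 7 calls were lost, with Clec2d at 0.73, Clec11a at 0.60, Clec4e at 0.53, Clec14a at 0.51, Clec1b at 0.47, Clec2i at 0.24 and Clec2l at -0.37. In the cerebrum the 4 day 7 calls were kept under quantile normalization, at larger values. These were 1.83 for Clec4d, 1.77 for Clec5a, 1.66 for Clec12a and 1.06 for Clec4n. Of the day 3 calls between tissues, Clec14a (0.48) and Clec4n (0.37) were lost, while Clec4d (1.45) and Clec5a (0.88) stayed called with smaller values. Of those against spinal control Clec1a (0.62) was lost. Fits that held only the compared groups lost 14 of the 71 calls of members. Among them were the spinal day 3 calls of Clec4e (limma adjusted p = 0.128), Clec1a (limma adjusted p = 0.115) and Clec3b (limma adjusted p = 0.178). The day 3 calls between tissues of Clec4e (limma adjusted p = 0.0743) and Clec4n (limma adjusted p = 0.0765) were lost too. So were Clec1b, Clec3b and Clec4f on spinal day 1, Clec11a on spinal day 7 and Clec2m on cerebral day 1. Clec11a between tissues on day 7, and Clec2d, Clec2m and Clec3b between controls, were also lost.

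**Figure D4:**
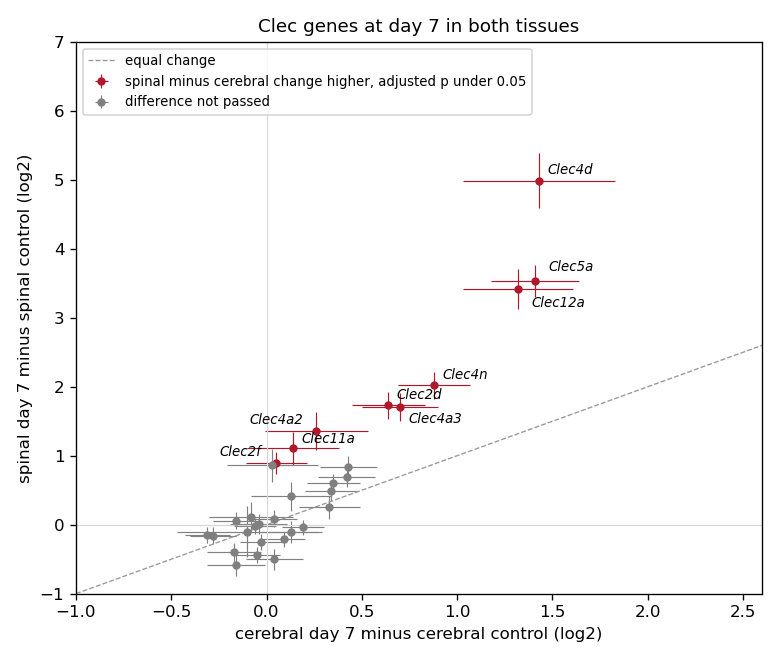
Day 7 minus control log2 difference of the 32 Clec genes in the spinal cord (vertical axis) and in the cerebrum (horizontal axis). Bars give the SE and the dashed line marks equal change. The 9 genes in red passed limma's test of the difference between tissues, led by Clec4d at 4.99 in the spinal cord and 1.43 in the cerebrum.

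Time after photothrombosis was compared as day 7 against day 1. In the spinal cord 11 members were called, all higher on day 7, against 25.2% of all genes in either direction and 13.1% higher. With the values as deposited there were 11 higher and 2 lower, where 32.8% of all genes were called, and Clec11a differed by 0.80, Clec4n by 0.69 and Clec2i by 0.44. With the offset taken as exact there were 14 higher and 5 lower, where 49.5% of all genes were called. The differences were 3.57 ± 0.29 for Clec12a (limma adjusted p = 6.38e-11), 3.24 ± 0.40 for Clec4d (limma adjusted p = 2.41e-07) and 2.35 ± 0.23 for Clec5a (limma adjusted p = 2.56e-09). Clec2d gave 1.77, Clec4a3 1.59, Clec4a2 1.39, Clec11a 1.32, Clec4n 1.05, Clec14a 0.79, Clec2i 0.71 and Clec2f 0.60. Clec4e differed by 0.10 ± 0.24 (limma adjusted p = 0.973), so a later rise beyond its day 1 value was not detected. Under quantile normalization the values of Clec12a (1.95), Clec4d (1.15), Clec4a3 (0.93), Clec11a (0.85) and Clec4a2 (0.83) were smaller and stayed called. It ended the calls of Clec5a (0.64), Clec4n (0.05), Clec2d (0.81), Clec14a (0.49), Clec2i (0.36) and Clec2f (0.35). The Clec2f call was lost in 5 of 8 fits that left out 1 array (limma adjusted p 0.054 to 0.143). In the cerebrum 1 member was called, Clec12a at 1.25 ± 0.29 (limma adjusted p = 0.0332), against 2.26% of all genes, and 7 of 8 fits without 1 array lost it (limma adjusted p 0.0545 to 0.111). In the values as deposited that Clec12a difference was 0.69 (limma adjusted p = 0.285).

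Without photothrombosis, spinal cord controls differed from cerebrum controls in 6 members, where 34.8% of all genes were called. Of these 3 were higher, against 17.2% of all genes, and 3 lower, against 17.6%. Without spinal controls 1 and 2, as without cerebrum controls 1 and 2, 1 was higher and 2 were lower, where 27.6% and 29.3% of all genes were called. Clec3b was higher by 1.05 ± 0.37 (limma adjusted p = 0.0257), and by 0.38 (limma adjusted p = 0.251) without spinal control replicate 2. Clec2d was higher by 0.57 ± 0.19 and Clec2i by 0.37 ± 0.14. Leaving out 1 array ended the Clec2d call in 3 of 8 fits, the Clec2i call in 4 of 8 and the Clec2m call in 4 of 8, and the last of these was a difference of -0.32. Without spinal controls 1 and 2 the calls of Clec3b (0.56, limma adjusted p = 0.125), Clec2i (0.20, limma adjusted p = 0.407) and Clec2m (-0.30, limma adjusted p = 0.103) were lost. Without cerebrum controls 1 and 2 the same 3 were lost, at 1.01 (limma adjusted p = 0.109), 0.38 (limma adjusted p = 0.1) and -0.23 (limma adjusted p = 0.234). The myeloid receptors Clec4d, Clec4n and Clec5a differed by 0.00, 0.00 and 0.08, and none of these passed.

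Clec18a and Clec16a were lower in spinal cord controls than in cerebrum controls without overlap. Clec18a measured -0.18, -0.25, -0.52 and -0.06 in spinal cord controls and 0.76, 0.22, 0.64 and 0.53 in cerebrum controls, a difference of -0.79 ± 0.14 (limma adjusted p = 3.12e-05). Clec16a, a regulator of autophagy and mitochondrial turnover, measured -0.24, -0.21, -0.19 and -0.48 in spinal cord controls and -0.08, 0.03, 0.23 and 0.41 in cerebrum controls, a difference of -0.43 ± 0.11 (limma adjusted p = 0.00304). After photothrombosis neither was called on any day. Clec18a then ran from -0.91 to -0.06 over the 12 spinal arrays and from 0.02 to 0.48 over the 12 cerebral ones, and Clec16a from -0.48 to 0.13 and from 0.17 to 0.73.

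Genes that transmit the receptors' signals were followed as a list of 20, of which 17 were measured. In the spinal cord 8, 7 and 12 of the 17 were higher on day 1, 3 and 7 and none lower, with a median of 1.13 on day 7, against -0.10 for all genes. In the cerebrum 8, 6 and 6 were higher and none lower, with a median of 0.25 on day 7, against -0.05 for all genes. On day 7 the adaptor Tyrobp was higher by 5.06 in the spinal cord and 3.65 in the cerebrum, and Fcer1g by 4.35 in the spinal cord and 2.58 in the cerebrum. The kinase Syk passed in the spinal cord (1.5) and gave 0.16 in the cerebrum, and the spinal minus cerebral difference of 1.35 was called. Card9 passed on no day, with 0.30 on spinal day 7 and 0.13 on cerebral day 7. Vav1, Plcg2 and the phosphatases Ptpn6 and Inpp5d, which inhibitory receptors recruit, were higher by 4.90, 2.47, 3.78 and 3.83 on spinal day 7 and by 2.5, 1.06, 2.08 and 1.45 on cerebral day 7. Of the 17 genes 11 differed between the tissues on day 7, all higher in the spinal cord.

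Cytokines and early genes known downstream of Syk and Card9 went another way. Of 11 measured 8 were higher on spinal day 1, 3 on day 3 and 1 on day 7, and 5 were lower on spinal day 7 than on day 1. On the 3 cerebral days limma called 0 higher, and at an unadjusted p under 0.05 there were also 0. In the cerebrum Egr2 and Egr3 were lower on day 1 and day 7. On spinal day 1 Il1b was higher by 2.84, Il6 by 2.66 and Ptgs2, the inducible cyclooxygenase, by 2.07. By day 7 they gave 0.71, 0.35 and 0.55 in the spinal cord and did not pass. Clec4d, Clec4n, Clec5a and the inhibitory Clec12a had their highest spinal means on that day. Clec4e, which is also coupled to Fcer1g, had its highest spinal mean on day 3 (1.09), with 0.73 on day 1 and 0.83 on day 7. Tnf and Il10 passed on no day, with Tnf at 0.27 and Il10 at -0.04 on spinal day 1.

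Among 11 genes listed for proteins that bind Clec proteins 4 were higher on each spinal day and 3, 2 and 3 on cerebral day 1, 3 and 7. Besides ligands, the list holds the receptor gene Klrb1b and its relatives Klrb1a and Klrb1f. Which members Anxa1 and vimentin bind was not examined. Anxa1 was higher by 4.82 on spinal day 7 and 1.29 on cerebral day 7, and vimentin (Vim) by 2.77 and 1.12 on the same days. Sap130, the Clec4e ligand, was lower, with differences of -0.61 on spinal day 1 and -0.42 on cerebral day 1.

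C-type lectins that carry other symbols gave a mixed picture. Of 42 measured 11, 9 and 11 were higher on spinal day 1, 3 and 7 and 1, 2 and 1 lower, while 4, 2 and 4 were higher on the cerebral days and 1 was lower on day 1. Selp, the selectin of activated platelets and endothelium, was higher by 4.75, 4.93 and 2.34 on spinal day 1, 3 and 7. Cd93, a relative of Clec14a, was higher by 3.81 on spinal day 7 and 0.99 on cerebral day 7. The mannose receptor Mrc1 was higher by 2.32 and its relative Mrc2 by 2.89 on spinal day 7. Brevican (Bcan), a lectin of the neural matrix, was lower, with differences of -0.91, -1.69 and -1.04 on spinal day 1, 3 and 7.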

How the data were processed

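RNA of 32 samples was measured on 32 arrays. Per the labels' protocols, TRIzol was used for extraction and 10 ng of RNA per sample went into biotin labelling. No source used here names the authors' software or genome build. Values as deposited are on a log2 scale, from -5.582 to 8.042, with array medians from -0.0553 to 0.0333. The number of arrays limits the precision.

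Of 22206 probes 19572 carried 1 gene symbol in the platform annotation, which gave 19505 genes, and the other 2634 had none or several. Probes of a gene were averaged. Clec7a was not analysed here.

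Per gene, control and day 1 arrays had a median of 0 in 100% of probes. Day 3 and day 7 arrays matched centring with the 8 controls in 86.8% of 5668 and 86.5% of 5162 probes that could tell, against 54.3% to 70.3% with other partners. Their offset was rebuilt from this, as a single value in 77.9% and 79.9% of probes and otherwise as an interval. Its size had a median of 0.0718 on day 3 and 0.0923 on day 7. Probes that could tell but did not match the controls were among those given a single value, without an interval. Comparisons across these parts were tested against a bound of 0.2 plus the interval's half-width. This replaced the planned fit on values as deposited, which is an alternative.

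One limma fit held 8 group means with 24 residual degrees of freedom, Benjamini-Hochberg adjustment and 12 comparisons. Replicate numbers follow accession order and pair nothing. The members, gene lists and rule for named genes (every member called in any of 10 comparisons gets its array values) were chosen with earlier results of these data known. The scripts were tested on simulated data. R 4.3.3, limma 3.58.1, Python 3.11.15, numpy 2.4.6, pandas 2.3.3 and matplotlib 3.10.9 were used. Alternatives were values as deposited, the offset taken as exact, quantile and 75th percentile scaling, the probe with the largest variance, a filter on spread, array weights, a trended robust fit, fits on the compared groups only, and each array left out. Leaving out spinal controls 1 and 2 or cerebrum controls 1 and 2 was added after seeing the data.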

Additional observations from a re-analysis of the deposited data

Results flagged for a closer look

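Of 168 sets of 4 arrays (21 members in 8 groups) 8 held 1 array far from the other 3, where chance gives about 1 in 20. Clec2f did so in 3 groups, with 0.71 in spinal day 3 replicate 4 (others -0.09 to -0.03), -0.66 in spinal control replicate 2 (others -0.11 to -0.01) and -0.53 in cerebral control replicate 2 (others 0.04 to 0.15). Clec4a3 was 1.67 in spinal day 3 replicate 4, against 0.48 to 0.63 in the others. Clec16a was 0.73 in cerebral day 3 replicate 3, against 0.42 to 0.45. Clec2e was -0.11 in cerebral control replicate 3, Clec4f was -0.19 in cerebral control replicate 1 and Clec4n was 0.02 in spinal control replicate 1.

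The change after photothrombosis differed between tissues by limma's test of the difference in 16 cases, each higher in the spinal cord. Of all genes 11.3%, 9.27% and 27.6% were called in this test on day 1, 3 and 7, and 4.7%, 4.08% and 13% were called higher. Quantile normalization ended all 9 day 7 calls. On day 1 the spinal minus cerebral log2 difference was 1.03 for Clec4e. On day 3 it was 2.82 for Clec4d, 1.81 for Clec4a2, 1.70 for Clec5a, 1.33 for Clec4e, 0.98 for Clec4n and 0.78 for Clec14a. On day 7 it was 3.56 for Clec4d, 2.12 for Clec5a, 2.09 for Clec12a, 1.14 for Clec4n, 1.10 for Clec4a2, 1.09 for Clec2d, 1.01 for Clec4a3, 0.96 for Clec11a and 0.84 for Clec2f.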

How the results depend on the processing

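No called difference of a member changed sign under any alternative run. Counts of called members that moved by over 1.5 times are given with the share of all genes called under the same setting in brackets. With the values as deposited there were 1 on cerebral day 3 (15.4%) and 1 on cerebral day 7 (11.7%). With the offset taken as exact and no bound there were 16 on spinal day 3 (38.3%), 3 on cerebral day 3 (19.9%), 8 on cerebral day 7 (22.3%), 19 for spinal day 7 against day 1 (49.5%) and 5 for cerebral day 7 against day 1 (15.2%). Quantile normalization gave 7 on spinal day 7 (16.3%), 7 on cerebral day 1 (26.9%), 5 on cerebral day 3 (10.5%), 6 for the tissue difference on day 1 (15.7%), 0 for the tissue difference on day 7 (16.6%), 5 for spinal day 7 against day 1 (8.88%) and 4 for cerebral day 7 against day 1 (7.34%). The cause was not tested. Scaling to the 75th percentile gave 0 for the tissue difference on day 1 (11.5%). The filter on spread, which kept 24 of 32 members and 14629 genes, gave 1 on cerebral day 1 (22.1%) and 2 for the tissue difference on day 1 (14.6%). Array weights gave 5 on cerebral day 1 (23.6%), 4 for the tissue difference on day 1 (15.8%) and 4 for cerebral day 7 against day 1 (4.64%). Fits on the compared groups only gave 5 on spinal day 1 (24.8%), 4 on cerebral day 1 (21.1%), 3 on cerebral day 3 (6.59%), 4 for the tissue difference on day 1 (11.7%) and 4 for cerebral day 7 against day 1 (4.26%). Without spinal controls 1 and 2 there were 5 on spinal day 1 (24.7%) and 3 between controls (27.6%). Without cerebrum controls 1 and 2 there were 0 on cerebral day 1 (10.8%), 2 on cerebral day 7 (4.57%) and 3 between controls (29.3%). The trended robust fit kept every count within 1.5 times. So did the probe with the largest variance, but each member has 1 probe. That setting therefore leaves the members' values unchanged and cannot test them.

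Leaving out 1 array gave 5 to 7 members on spinal day 1, 9 to 10 on spinal day 3, 12 to 14 on spinal day 7, 1 to 3 on cerebral day 1, 0 to 0 on cerebral day 3 and 2 to 3 on cerebral day 7. Tissue differences gave 0 to 4 on day 1, 5 to 7 on day 3 and 7 to 10 on day 7. Day 7 against day 1 gave 10 to 12 in the spinal cord and 0 to 1 in the cerebrum, and the controls gave 2 to 6. These ranges show only how far the counts moved. They are not set beside the share of all genes called in the same fits. No paired analysis was possible because the labels give no replicate numbers. A filter on dim probes was not run because centred values carry no brightness, so signal over background is unknown here.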
